A study of Mus musculus with 1528 samples.

Results

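The cells described here were the MHC class II-high cells of a bone marrow-derived macrophage (BMDM) culture. They were 216 of the 1439 cells that passed quality limits, out of 1524 wells of known mouse and treatment. A class II score was computed for each cell as the mean of log2(CPM + 1), where CPM is the number of fragments of a gene scaled to the same total in every cell or sum, over *H2-Aa*, *H2-Ab1*, *H2-Eb1* and *Cd74*, and the top 15% of all kept cells were taken. These 216 cells were therefore chosen by the level of these 4 genes, and differences in level between them and the remaining 1223 cells are a description with no test.

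BMDMs were grown from the marrow of 2 wild-type mice in M-CSF (strain C57BL/6 in the labels, male C57BL/6J in the study's methods for BMDM culture) and stimulated for 24 h with IL-4/IL-13 or with IL-4/IL-13+TNF, each cytokine at 10 ng/ml. Both groups thus received IL-4, IL-13 and M-CSF, and TNF was the agent that differed. Live single cells were sorted into 4 plates of wells and profiled with Smart-seq2, which makes full-length cDNA and carries no molecular identifiers. Each plate held both treatments of 1 mouse in separate parts, so the position on the plate and the treatment cannot be told apart. The mouse was the replicate (n = 2 per treatment), and the 4 sets are given throughout in the order IL-4/IL-13 mouse 1, IL-4/IL-13 mouse 2, IL-4/IL-13+TNF mouse 1 and IL-4/IL-13+TNF mouse 2.

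MHC class II molecules present peptides from engulfed material to CD4+ T cells. An alpha and a beta chain pair in the endoplasmic reticulum with the invariant chain *Cd74*, which fills the groove until proteases of the endosome cut it, and H2-DM then exchanges the remaining piece for a peptide. The transactivator *Ciita* is recruited by factors bound at the X and Y boxes of class II promoters and is the switch of the pathway. Dendritic cells, B cells and activated macrophages are the cells best known for carrying these molecules.

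The promoter letters are shown because the class II chains and the H2-DM genes were high in the same cells. The letters searched were ACNGATG, from the core of the X box, followed on the same strand by GATTGG, the Y box, with 10 to 35 bases between them. RefSeq promoter windows (GRCm38.p6, 250 bases before to 50 after the start) were found for 16 of 21 class II, regulator and marker genes. *H2-Eb1* (chr17:34305771-34305820, plus strand), *H2-Eb2* (chr17:34325538-34325587, plus strand), *H2-DMb1* (chr17:34153092-34153142, plus strand) and *H2-DMb2* (chr17:34145121-34145171, plus strand) held the pair, and *H2-Aa* (chr17:34287859-34287908, minus strand) held the Y box letters alone at this place. Capitals mark the searched letters.
H2-Eb1: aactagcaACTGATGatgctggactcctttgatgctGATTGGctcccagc
H2-Eb2: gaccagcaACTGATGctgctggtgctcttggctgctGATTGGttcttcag
H2-DMb1: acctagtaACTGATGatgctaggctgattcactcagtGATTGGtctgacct
H2-DMb2: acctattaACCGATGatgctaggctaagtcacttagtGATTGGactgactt
H2-Aa: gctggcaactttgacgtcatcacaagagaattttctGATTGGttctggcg

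The gap between the 2 boxes was 21 bases in *H2-Eb1* and *H2-Eb2* and 22 bases in *H2-DMb1* and *H2-DMb2*. Of all 32851 promoter windows 25 held the pair (0.0761%), while 9.85% held the X letters and 16.1% the Y letters on either strand. The windows of *H2-DMa*, *H2-Oa*, *H2-Ob*, *Ccr2* and *Plbd1* did not hold the pair. With the score genes left out, 64 windows covered 51 of the 70 genes at least 2-fold higher in the class II-high cells in 4 of 4 sets. The pair was in 2 of these windows, those of *H2-DMb1* and *H2-DMb2*. *H2-Eb1*, a score gene that holds the pair, was not among the genes counted.

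The limit lay at 9.297, the 5 cells just inside had scores of 9.30 to 9.34 and the 5 just outside 9.26 to 9.296. Over all sets 42 class II-high cells and 43 other cells lay within 0.5 of the limit, so that the assignment of these cells depends on where it is drawn. Most of them had received TNF: the class II-high cells within 0.5 numbered 5, 4, 22 and 11 in the 4 sets, and the other cells 1, 7, 18 and 17. The median score of all kept cells was 2.18, 5.004, 5.36 and 6.55 in the 4 sets. The mice thus differed in their class II level before any selection, though mouse and plates cannot be told apart.

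**Figure D1:**
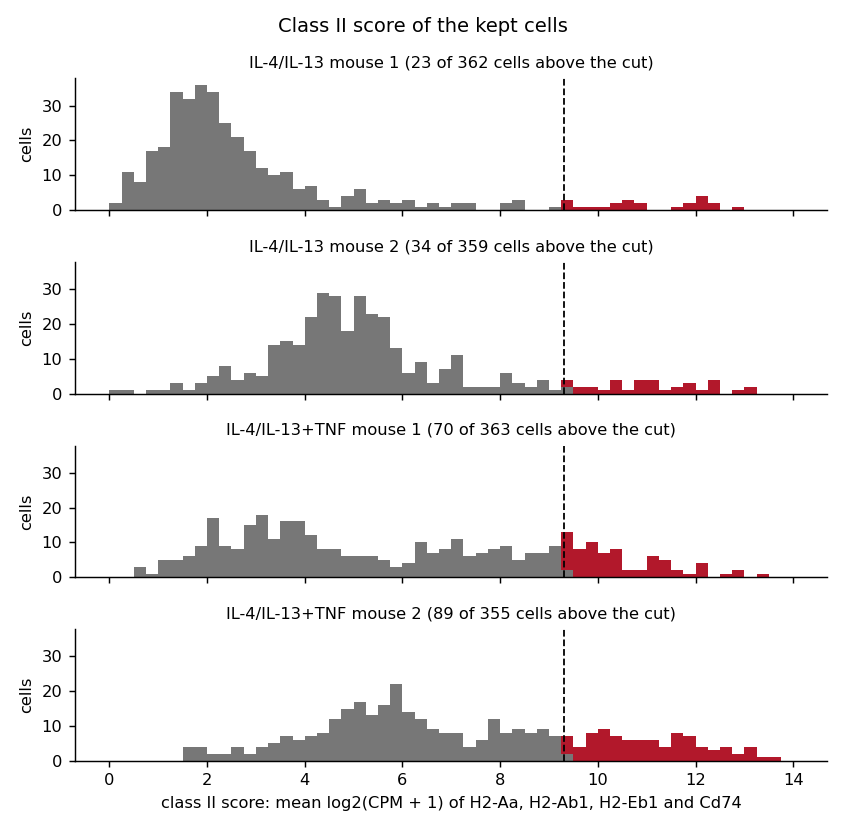
Histograms of the class II score (mean log2(CPM + 1) of the 4 genes, x axis) over the kept cells, with the number of cells on the y axis and 1 panel per mouse and treatment. Red bars are the 216 class II-high cells and grey bars the other 1223, and the line marks the limit of 9.297, within 0.5 of which lie 42 class II-high and 43 other cells, most of them with TNF.

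Depth did not set the class II-high cells apart. Their median was 455351 to 510863 fragments over the 4 sets, against 444154 to 483775 in the other cells, and the mitochondrial share was 2.84% to 3.51% against 2.76% to 3.79%. With every cell thinned to 200000 fragments, the median number of genes found was 6666, 5981.5, 7060 and 6401 against 6725, 6081, 7094 and 6655. Without thinning it was 7865, 7622, 8051.5 and 7647 against 7878, 7399, 8169 and 7919.5. Across all kept cells the rank correlation of the score with depth was between -0.06 and 0.11 within sets.

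Class II-high cells were more frequent among the cells that had received TNF. Of the kept cells they made up 23 of 362 (6.35%; 95% Clopper-Pearson interval 4.07 to 9.38) and 34 of 359 (9.47%; 6.65 to 12.98) with IL-4/IL-13. With IL-4/IL-13+TNF they made up 70 of 363 (19.3%; 15.4 to 23.7) and 89 of 355 (25.1%; 20.6 to 29.9). The share was 3.04-fold and 2.65-fold higher with TNF in mouse 1 and mouse 2, and the treatments did not overlap.

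The mean share was 7.91% ± 2.20 (SD, n = 2) without and 22.2% ± 4.09 (SD, n = 2) with TNF, a difference of 14.26 percentage points. The exact two-sided permutation test over the 4 sets gave p = 0.3333, the smallest value 2 against 2 can give. By plate the share was 8.29% against 17.98%, 4.42% against 20.5%, 8.65% against 25.7% and 10.3% against 24.4%, higher with TNF on 4 of 4 plates. The limit was set on all cells together, so a larger share in one treatment lowers that in the other. The intervals cover counting error only.

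**Figure D2:**
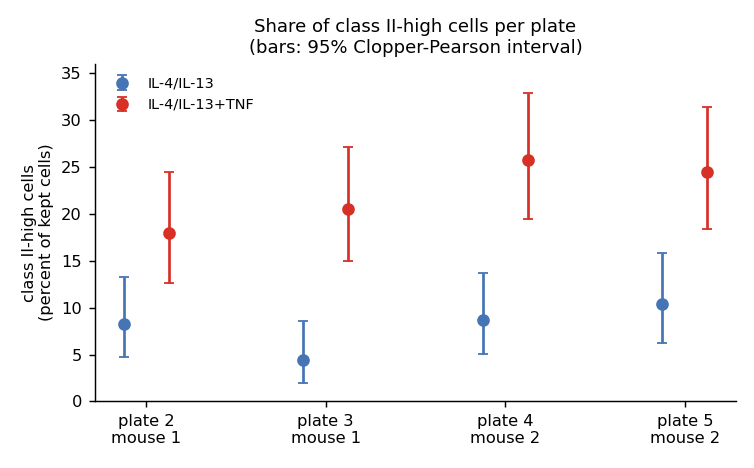
Share of class II-high cells among the kept cells (y axis, percent) on each of the 4 plates (x axis), by treatment. Bars are 95% Clopper-Pearson intervals. The IL-4/IL-13+TNF points lie between 17.98% and 25.7% and the IL-4/IL-13 points between 4.42% and 10.3%.

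The genes of the score lie on chromosome 17 for the 3 chains (mm10): *H2-Aa* (34282744 to 34287823), *H2-Ab1* (34257689 to 34269419) and *H2-Eb1* (34305867 to 34316674). They encode the I-A alpha, I-A beta and I-E beta chains, and their values, which chose the cells, are a description. Summed over the class II-high cells of each set, *H2-Aa* was at 3574, 4094, 2756 and 4513 CPM, against 23.9, 54.5, 130 and 171 CPM in the other cells. *H2-Ab1* was at 3511, 4217, 2458 and 3660 CPM against 34.9, 123, 155 and 191 CPM. *H2-Eb1* was at 1769, 2535, 1591 and 2869 CPM against 6.26, 33.6, 41.8 and 63.7 CPM.

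The 3 chains overlapped between the treatments inside the class II-high cells and were higher with TNF in the other cells of both mice. Both groups were split at 1 limit on these same genes, so neither pattern can be read as an effect of TNF. The invariant chain *Cd74* was at 2235, 1809, 1778 and 1865 CPM, against 88.8, 167, 306 and 293 CPM. Fragments of these genes were thus counted in the other cells too, and the source of their low counts was not tested. Per cell, *H2-Aa* in the class II-high cells ran from 554 through a median of 2969 to 8799 CPM with IL-4/IL-13 in mouse 1, and from 431 through 2751 to 26873 CPM with IL-4/IL-13+TNF in mouse 2.

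The peptide editors, which the score did not use, were higher in the class II-high cells. *H2-DMa*, the alpha chain of H2-DM, was at 641, 790, 305 and 428 CPM against 70.1, 120, 61.7 and 92.7 CPM in the other cells. *H2-DMb1*, a beta chain of the same molecule, was at 590, 590, 357 and 412 CPM against 59.2, 93.6, 68.1 and 93.2 CPM. *H2-DMb2*, the neighbouring beta chain gene, was at 64.0, 52.2, 44.0 and 85.0 CPM against 5.64, 7.14, 5.18 and 7.67 CPM. In all 3 the lowest class II-high set lay above the highest set of other cells.

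*H2-Ob*, a chain of the H2-DM inhibitor H2-O, was low at 3.90, 14.8, 1.27 and 2.50 CPM, but still above the 0.0475, 1.16, 0.0294 and 0.836 CPM of the other cells. Of the 6 class II chains and editors outside the score that could be measured, 4 were at least 2-fold higher in 4 of 4 sets and none lower. Over all genes measured 70 of 18495 (0.378%) were that much higher and 90 (0.487%) that much lower. The median log2 ratio of the 6 genes was 2.44, against -0.05 over all genes. *H2-Oa* and *H2-Eb2* did not pass, and *H2-Ea-ps* was under the filter on low counts. Paralogs such as *H2-DMb1* and *H2-DMb2* share sequence, and fragments that map to both are not in these counts.

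Of the 8 class II transcription factors only *Ciita* passed this limit. It was at 85.6, 303, 86.4 and 149 CPM in the class II-high cells against 9.40, 42.1, 10.8 and 25.7 CPM in the other cells. At equal depth it was found with at least 5 fragments in 73.9%, 88.2%, 70.0% and 73.0% of the class II-high cells and in 9.14%, 20%, 11.3% and 20.3% of the others. *Rfx5*, a subunit of the factor bound at the X box, was at 9.14, 3.39, 6.16 and 3.94 CPM against 8.45, 10.9, 2.30 and 7.30 CPM, which overlap. *Rfxap*, *Rfxank*, *Nfya*, *Nfyb*, *Nfyc* and *Creb1*, which bind at the same boxes, did not reach 2-fold in 4 of 4 sets either.

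The editors also followed the score cell by cell. The rank correlation of the score with the mean level of the editor list was 0.43, 0.56, 0.74 and 0.73 over the kept cells of each set, and with *Ciita* 0.36, 0.52, 0.54 and 0.55. Among the class II-high cells alone it was 0.76, 0.50, 0.66 and 0.65 for the editor list. The cells of a set share a culture and plates, and these values are given without a test.

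**Figure D3:**
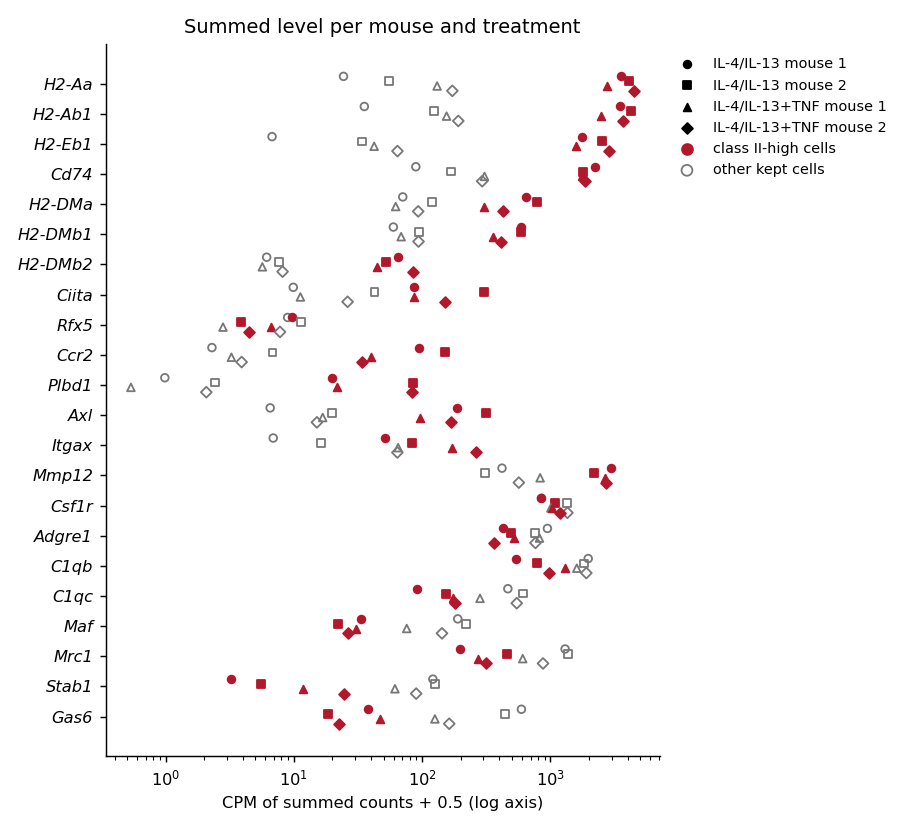
CPM of summed counts with 0.5 added (x axis, log scale) for 22 genes (y axis) in the class II-high cells (filled red) and the other kept cells (open grey), with 1 marker shape per mouse and treatment. Levels compare within a gene. The class II chains, editors, *Ciita*, *Ccr2* and *Plbd1* of the class II-high cells lie to the right in all 4 sets, *Rfx5* and *Csf1r* overlap, and *Maf*, *Mrc1*, *Stab1* and *Gas6* lie to the left.

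The 2 further markers named for these cells, *Ccr2* and *Plbd1*, were higher in sum but found in a minority of the cells. *Ccr2*, the receptor for CCL2 that brings monocytes out of the marrow, was at 93.9, 151, 39.4 and 33.6 CPM against 1.80, 6.31, 2.76 and 3.42 CPM in the other cells. With at least 5 fragments at equal depth it was found in 10 of 23, 14 of 34, 8 of 70 and 9 of 89 class II-high cells (43.5%, 41.2%, 11.4% and 10.1%), and in 1.47%, 3.69%, 1.71% and 0.752% of the others. *Plbd1*, a phospholipase B-like protein, was at 19.4, 85.0, 21.2 and 83.4 CPM against 0.487, 1.94, 0.0368 and 1.58 CPM. It was found in 5 of 23, 6 of 34, 7 of 70 and 19 of 89 class II-high cells. At this limit each marker was missing from most class II-high cells of every set, so the name rests on the class II genes.

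The class II-high cells in which *Ccr2* was found differed from those in which it was not, by values chosen for mention after they were seen. *Mgl2*, a galactose-binding lectin of alternatively activated macrophages, had a median of 1962, 1885, 1920 and 1505 CPM in cells with *Ccr2* and of 233, 779, 80.6 and 43.7 CPM in cells without it. The related lectin *Clec10a* had medians of 290, 451, 172 and 101 CPM against 173, 251, 13.5 and 15.5 CPM. *H2-Aa* had medians of 5210, 4345, 3039 and 5261 CPM against 2326, 2641, 1454 and 2599 CPM. All 3 genes were higher with *Ccr2* in 4 of 4 sets, over 8 to 14 such cells per set.

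Other chemokine receptors were raised as well. Of the 7 measured, 4 were at least 2-fold higher in 4 of 4 sets, among them *Ccr1*, *Ccr2* and *Cx3cr1*, with a median log2 ratio of 2.82. Among all genes measured 0.378% were that much higher and 0.487% that much lower. *Ccr1*, a receptor for inflammatory chemokines, was at 81.7, 61.9, 69.7 and 38.8 CPM against 10.6, 5.70, 16.3 and 5.29 CPM. *Cx3cr1*, the fractalkine receptor, was at 26.3, 16.6, 2.43 and 6.55 CPM against 0.451, 0.638, 0.912 and 1.28 CPM. *Cx3cr1* was lower in the sets with TNF, while *Ccr1* overlapped between the treatments. Of 19 measured monocyte genes 3 were higher (*Ccr2*, *Cx3cr1* and *Plbd1*) and none lower, with a median log2 ratio of 0.20. *Ly6c2*, the marker of inflammatory monocytes, was at most 0.389 CPM.

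Of 18 measured dendritic cell core genes 4 were higher and none lower, next to 0.378% and 0.487% of all genes. The median log2 ratio of the list was 1.28. *Itgax*, the integrin CD11c, was at 51.0, 82.9, 170 and 261 CPM against 6.405, 15.7, 64.5 and 63.6 CPM. *Batf3*, a transcription factor of the dendritic lineage, was at 56.3, 58.8, 27.5 and 52.8 CPM against 9.94, 27.3, 10.8 and 17.3 CPM. *Cd24a* was at 226, 248, 70.0 and 118 CPM against 22.9, 24.5, 21.99 and 21.4 CPM, and *Cbfa2t3* was the fourth.

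The defining genes of the dendritic lineage were at low levels. The receptor *Flt3* was at 7.10, 6.28, 6.86 and 6.22 CPM against 7.41, 7.23, 7.30 and 7.26 CPM in the other cells. *Zbtb46*, a transcription factor of conventional dendritic cells, was at 4.35, 15.9, 1.67 and 19.99 CPM against 0.0653, 1.41, 1.25 and 2.07 CPM, above the others but not by 2-fold in 4 of 4 sets. None of the 3 measured cDC1 genes passed, and *Xcr1* was at most 1.58 CPM. A few class II-high cells without TNF held other dendritic genes. With at least 5 fragments at equal depth, *Cd209a* of the core list was found in 2 of 23 and 2 of 34. *Siglech*, of plasmacytoid dendritic cells, was found in 1 of 23 and 2 of 34. Both were found in 0 of 339 and 0 of 325 others without TNF, and in 0 of 70 and 0 of 89 class II-high cells with TNF.

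The macrophage genes were present. *Csf1r*, the receptor for M-CSF, was at 839, 1093, 1036 and 1181 CPM against 851, 1349, 1008 and 1357 CPM, which overlap. *Adgre1*, which encodes F4/80, was at 427, 495, 523 and 360 CPM against 948, 757, 822 and 764 CPM. Of 19 measured mature macrophage genes 1 was higher (*Axl*) and 2 lower (*Maf* and *Folr2*), next to 0.378% and 0.487% of all genes. The median log2 ratio of the list was -0.87. *Axl*, a receptor for apoptotic cells, was at 186, 314, 95.1 and 169 CPM against 6.04, 19.3, 16.3 and 14.6 CPM.

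*Axl* and its ligand *Gas6* went opposite ways. *Gas6* was at 37.2, 18.005, 46.1 and 21.9 CPM in the class II-high cells against 594, 442, 125 and 162 CPM in the others. *Stab1*, a scavenger receptor, was at 2.75, 5.001, 11.3 and 24.04 CPM against 121, 126, 60.9 and 89.4 CPM. *Maf*, a transcription factor of mature macrophages, was at 32.8, 21.7, 29.8 and 26.0 CPM against 189, 220, 75.4 and 142 CPM. In all 3 the highest class II-high set lay below the lowest set of other cells. *Mgst1*, *Rnase4* and *Tfrc* were also at least 2-fold lower in 4 of 4 sets, and *C1qa*, *Wwp1*, *Iqgap2* and *Fchsd2* were lower in 4 of 4 but not by 2-fold in each.

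Further genes, most of them named by the rule for a high ratio to the other cells, had different known roles. *Ctsl* and *Dcstamp* were not named by that ratio. *Mmp12*, the macrophage elastase, was at 2948, 2185, 2681 and 2708 CPM against 419, 308, 831 and 567 CPM. *Ctsh*, a cathepsin, was at 344, 484, 238 and 460 CPM against 116, 198, 111 and 158 CPM, and *Napsa*, an aspartic protease, at 141, 220, 98.5 and 145 CPM against 34.3, 62.6, 40.9 and 48.3 CPM. *Ctsl*, the cathepsin that cuts the invariant chain in thymic epithelium, was lower, at 372, 447, 1121 and 664 CPM against 2617, 2155, 2685 and 1849 CPM. It was the 1 gene of 11 measured for class II processing and turnover to pass, and the list's median log2 ratio was -0.03. *Dcstamp*, a fusion protein of multinucleated macrophages that IL4 induces, was at 78.8, 60.7, 111 and 157 CPM against 1.97, 1.11, 15.7 and 13.8 CPM. With at least 5 fragments at equal depth it was found in a minority, 17.4%, 14.7%, 31.4% and 44.9% of the class II-high cells. The shares in the others were 0.885%, 0.923%, 6.83% and 5.64%. *Plaur*, *Lsp1*, *Rnase2a*, *Map4k1* and *AA467197* were higher in 4 of 4 sets too, and *Samsn1* was 2-fold higher in 3 of them.

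Of the 6 M2 signature genes 2 were lower in the class II-high cells, next to 0.487% of all genes. The median log2 ratio of the list was -1.95. *Mrc1*, the mannose receptor, was at 197, 459, 274 and 316 CPM against 1302, 1372, 608 and 876 CPM. *Il10* was at most 0.167 CPM in the class II-high cells and 1.05 to 9.62 CPM in the others. *Mgl2* had 1696, 1522, 544 and 834 CPM against 750, 569, 329 and 384 CPM, in the other direction. The summed level of *Retnla* was 5.94, 248, 0.576 and 63.5 CPM in the class II-high cells and rested on few cells. In mouse 2 its highest cell had 7198 CPM without and 4498 CPM with TNF, where the medians were 6.18 and 2.19 CPM. Of 22 IL4 and IL13 response genes 4 were higher (*Ccl17*, *Dcstamp*, *Ear2* and *Itgax*) and none lower, next to 0.378% and 0.487% of all genes. *Ccl17* rested on few cells. With at least 5 fragments at equal depth it was found in 1 of 23, 1 of 34, 2 of 70 and 15 of 89 class II-high cells.

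Several gene groups held few or no genes past the limit. Of 13 class I presentation genes none passed in either direction, with a median log2 ratio of 0.13. The same held for 16 cell cycle genes, with a median of 0.29. Of 29 TNF and NF-kB response genes *Mmp12* alone was higher, of 22 interferon response genes *Ifit3* alone was lower, and of 14 co-stimulation and checkpoint genes *Slamf9* alone was higher.

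Markers of lymphocytes and granulocytes did not pass in either direction. Of 5 B cell, 2 T and NK cell, 3 neutrophil, 1 mast cell and basophil, 1 eosinophil, 4 plasmacytoid dendritic cell and 4 stromal genes measured none was 2-fold higher or lower in 4 of 4 sets. *Cd79a*, a chain of the B cell receptor, was at most 0.0303 CPM in the class II-high cells of the 4 sets and *Cd3e* at most 0.177 CPM. *Ighm* transcripts were nonetheless present at 225, 270, 38.7 and 30.6 CPM, against 129, 111, 33.9 and 15.1 CPM in the others. The summed level of the 8 B cell genes was 41.4 to 271 CPM in the class II-high cells and 21.3 to 132 CPM in the others. The part of other cell types in these results was otherwise not tested.

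TNF was then compared with no TNF inside the class II-high cells, on counts summed over the cells of each mouse and treatment. By edgeR (quasi-likelihood test, p-values adjusted by Benjamini-Hochberg) 0 of 15329 genes (0%) passed an adjusted p of 0.05, and with the mouse as a block 0 passed as well. At an unadjusted p under 0.05 the test gave 794 genes that were higher (5.18%) and 610 that were lower (3.98%) with TNF, and 1700 in all with the block. DESeq2 called 479 of 14140 genes (3.39%), of which 282 were higher. In the other cells edgeR called 1 of 17071 genes (0.00586%), *Clec4e*, and 370 (2.17%) with the mouse as a block.

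Genes of the TNF and NF-kB response leaned one way. Of 29 tested, 15 were higher at an unadjusted p under 0.05 in the class II-high cells and none lower, with a median log2 fold change of 1.96 against -0.01 over all genes. In the other cells the counts were 20 and none, with a median of 2.05, where 3.24% of all 17071 genes were higher and 4.07% lower at that p. *Nfkbia*, the inhibitor that NF-kB itself induces, was at 110, 84.9, 579 and 454 CPM in the class II-high cells, with a log2 fold change of 2.48 ± 0.24 (SE) and an adjusted p of 0.329. *Sod2*, the mitochondrial superoxide dismutase, was at 108, 127, 470 and 396 CPM, with 1.96 ± 0.21. Neither overlapped between the treatments, and neither passed the adjusted threshold in edgeR.

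*Clec4e*, the receptor Mincle, was at 44.1, 9.11, 534 and 322 CPM in the class II-high cells and at 17.7, 22.5, 686 and 818 CPM in the others. *H2-M2*, a nonclassical class I chain, was at 0.266, 0.167, 265 and 223 CPM, against 0.427, 1.17, 99.1 and 77.2 CPM in the others. It had the lowest adjusted p of all genes tested, with a log2 fold change of 10.25 ± 0.37 (SE) and an adjusted p of 0.0541. The chemokine gene *Ccl5* was at 0, 0.167, 269 and 135 CPM against 2.96, 1.66, 26.8 and 33.1 CPM in the others. The untreated sums of *H2-M2* and *Ccl5* hold few fragments, so the size of their fold depends on them. *Saa3*, *Spint2*, *Cxcl2* and *Gpc1* also had unadjusted p-values under 0.05 and were higher in both mice.

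Genes that were lower with TNF included *Itgb7*, an integrin chain of gut-homing leukocytes. It was at 565, 524, 40.4 and 73.5 CPM in the class II-high cells and at 65.4, 86.2, 22.4 and 30.7 CPM in the others. With at least 5 fragments it was found in 100%, 97.1%, 27.1% and 35.96% of the class II-high cells, and the log2 fold change was -3.17 ± 0.36 (SE; adjusted p = 0.329). *Hpgd*, which breaks down prostaglandins, was at 77.2, 118, 0.485 and 2.39 CPM. *Ly6a* was at 140, 101, 13.2 and 14.5 CPM and *Cd300lg* at 87.7, 70.4, 5.40 and 10.1 CPM. *Alox5* and *Dnaaf2* were lower in both mice, as were *Klk1b11*, *Klk1b24* and *Klk1b12-ps*, members of a family of near-identical genes whose fragments cannot be assigned with certainty.

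*Ccr2* was among the lower genes, with a log2 fold change of -1.67 ± 0.33 (SE; adjusted p = 0.331). Of 13 tested monocyte genes 7 were lower at an unadjusted p under 0.05 and none higher. Over all 15329 genes 3.98% were lower and 5.18% higher at that p. *Plbd1* did not follow *Ccr2*: its values of 19.4, 85.0, 21.2 and 83.4 CPM separated the mice and not the treatments. *Ciita* overlapped between the treatments as well, as did *H2-DMb2*. *Clec10a* was at 311, 480, 94.3 and 112 CPM, with a log2 fold change of -1.86 ± 0.29 (SE; adjusted p = 0.329), next to -1.53 ± 0.29 in the other cells.

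**Figure D4:**
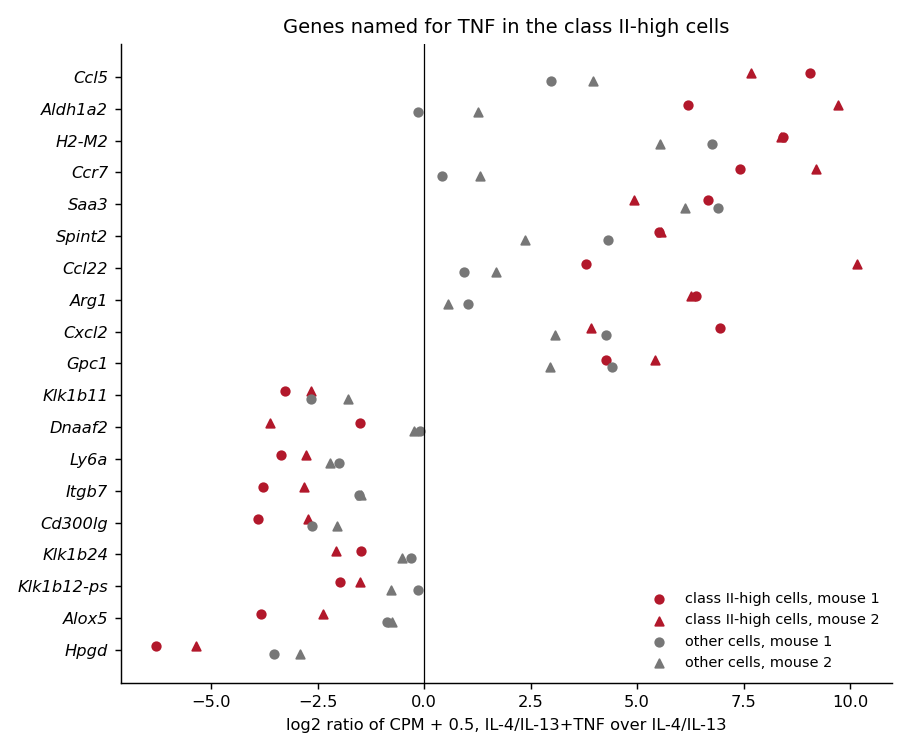
Log2 ratio of CPM with 0.5 added, IL-4/IL-13+TNF over IL-4/IL-13 (x axis), for 19 genes named for TNF in the class II-high cells (y axis), in the class II-high cells (red) and the other cells (grey) of mouse 1 (circles) and mouse 2 (triangles). The genes were chosen by this contrast in the class II-high cells, and both mice lie on the same side of 0 for every gene in red.

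The limit over all cells took the top 7.91% of the cells without TNF and the top 22.1% of those with it, and some TNF values changed when the cells were chosen otherwise. With the top 15% of each set taken instead, the log2 fold change of *Arg1*, the arginase of alternative activation, went from 6.76 to 2.03, and that of the complement gene *C1qa* from 4.94 to 0.87. With the limit over all cells kept, *Arg1* also went to 1.89 for the top 20% and to 2.82 with cells kept by median absolute deviations, where *C1qa* was at 3.17 and 4.32. *Gpnmb* went from 1.77 to 0.71 and *H2-DMa* from -0.88 to -0.24, and *H2-DMb1* turned from -0.54 to 0.11. *C1qa* was at 4.17 and 2.67 CPM in the class II-high cells without TNF, against 113 and 58.5 CPM in the other cells without TNF. *Ccr2* went from -1.67 to -0.96, *Cxcl2* from 6.28 to 3.98 and *Klk1b11* from -2.83 to -1.72. The log2 values of *H2-M2* (10.07), *Nfkbia* (2.23), *Hpgd* (-7.15) and *Itgb7* (-2.36) kept their direction.

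Within the class II-high cells lay 11 cells with 200 CPM or more of *Ccr7*, the receptor that guides dendritic cells to lymph nodes. This limit was set after the values were seen, in a gap between 128 and 345 CPM. All 11 were class II-high, all had received TNF, 1 came from mouse 1 and 10 from mouse 2, and they lay on 3 plates (1, 7 and 3 cells). They made up 6.92% of the 159 class II-high cells with TNF. No cell outside the class II-high group reached the limit, although at least 1 fragment of *Ccr7* was found in 10.9% and 31.2% of the other cells with TNF of mouse 1 and mouse 2.

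Of the 11 genes listed for mature dendritic cells 9 were at 5 CPM or more in all of these cells, *Ccr7* by the choice of cells. *Birc2* was so in 9 of 11 and *Il12b* in 5 of 11. Among the other class II-high cells with TNF, the share at 5 CPM or more ran from 0% for *Fscn1* to 87.2% for *Tmem123*. It was 50.7% for *Samsn1* and 46.6% for *Relb*. The chemokine *Ccl22* had a median of 8681 CPM, against 0 in the other 148 class II-high cells with TNF, and the actin bundler *Fscn1* 307 against 0. *Aldh1a2*, which makes retinoic acid, had a median of 5022 CPM against 0, and the maturation marker *Cd83* 3316 against 2.81 CPM. *Fscn1* and *Cacnb3* were found at 5 CPM or more in 11 of 11 of them. Of the *Fscn1* and *Cacnb3* fragments of the class II-high cells with TNF, 99.8% came from these 11 cells. The share was the same for *Ccr7*, by which the cells were chosen. The highest value of *Ccl17*, a further chemokine of the list, was 3404 CPM in the 11 and 7431 CPM in the other class II-high cells with TNF. Dendritic cell core genes went both ways. *Itgax* had a median of 16.2 against 104 CPM and *Flt3* 2.49 against 5.71 CPM. *Traf1* had 746 against 33.5 CPM, *Spint2* 272 against 0 and *Irf4* 29.8 against 1.95 CPM. *Zbtb46* was at 5 CPM or more in 4 of the 11 and in 7.43% of the other class II-high cells with TNF.

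Macrophage genes were low in the same cells. *Csf1r* ran from 4.49 through a median of 18.9 to 68.3 CPM, while among the other 205 class II-high cells its lowest value was 42.4 and its median 1092 CPM. *Adgre1* had a median of 5.26 against 414 CPM in the other class II-high cells with TNF, *Cd68* 15.8 against 986 CPM and *Mmp12* 7.43 against 1383 CPM. Their class II genes were not alike: *H2-Aa* had a median of 11848 against 1894 CPM and *H2-DMb2* 556 against 24.5 CPM, whereas *H2-DMa* had 10.0 against 350 CPM and *H2-DMb1* 86.7 against 340 CPM. Of the *H2-Eb2* fragments of the class II-high cells with TNF, 95.1% came from these 11 cells. They had a median of 497989 fragments and 7020 genes.

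**Figure D5:**
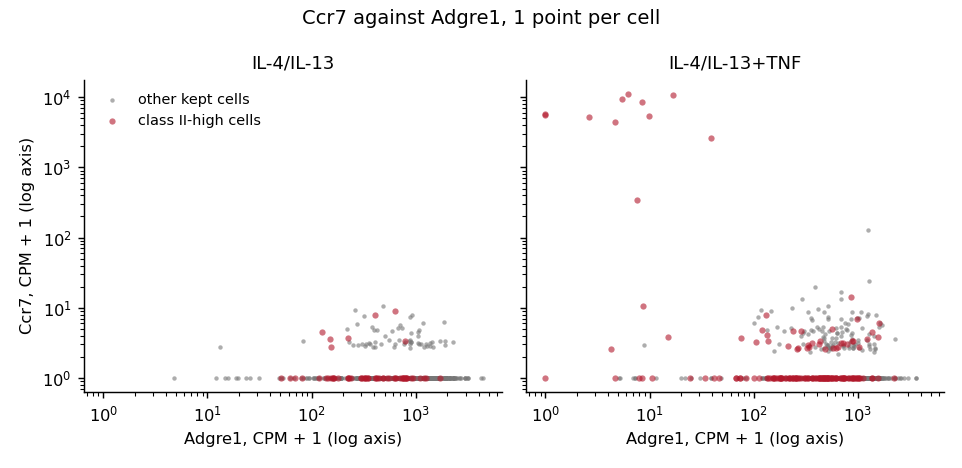
*Ccr7* (y axis) against *Adgre1* (x axis), both as CPM + 1 on log scales, with 1 point per kept cell and 1 panel per treatment. Class II-high cells are red and other cells grey. In the IL-4/IL-13+TNF panel 11 red cells stand at 345 CPM of *Ccr7* or more with at most 38.2 CPM of *Adgre1*, and the IL-4/IL-13 panel holds none.

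The 11 cells set part of the TNF values given above. Of 10 tested genes of mature dendritic cells 9 were higher with TNF at an unadjusted p under 0.05, next to 5.18% of all 15329 genes. The summed levels of the list were 352, 214, 882 and 3758 CPM. *Ccr7* was at 0.0887, 0.778, 99.7 and 758 CPM, *Ccl22* at 14.9, 0.778, 212 and 1475 CPM, and *Aldh1a2* at 0, 0.500, 36.04 and 838 CPM. Without the 11 cells the log2 fold change of *Ccr7* went from 9.85 to 0.82, that of *Aldh1a2* from 10.6 to 3.84 and that of *Ccl22* from 6.88 to 4.57. *H2-DMb2* then turned to -0.75. *H2-M2* stayed at 9.94, and the share of class II-high cells was still 13.1 percentage points higher with TNF.

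Whether TNF acted differently on class II-high and other cells was tested as an interaction, with each set as a block. Of 18495 genes 0 passed in edgeR (0%), and 1363 of the 18495 had an unadjusted p under 0.05. DESeq2 called 281 of the 15267 genes it tested. *Ccr7* had a difference of log2 fold changes of 7.90 ± 0.38 (SE; adjusted p = 0.263), which became -0.63 without the 11 cells. *Itgb7* had -1.78 ± 0.27 and *Ccl5* 7.09 ± 0.97 (SE), both with an adjusted p of 0.618. The *Ccl5* value includes the class II-high cell with 17240 CPM named above. Over the 29 TNF and NF-kB response genes the median difference was -0.08, against 0.05 over all genes. A difference in the TNF response between the 2 kinds of cells was not detectable for any single gene with 2 mice in this test.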

How the data were processed

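Smart-seq2 libraries of single BMDMs were compared. The authors aligned fragments to mm10 with gsnap and deposited raw counts per gene and well from featureCounts 1.6.3 (Ensembl 98 per the paper, strand not used). 92 spike-in rows were left out; 8 columns match no label and were not used. Wells with at least 200000 fragments, 5000 genes and at most 10% mitochondrial fragments were kept (1439 of 1524). No doublet caller was run, since wells were sorted singly.

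The members and gene lists were chosen with earlier results of these data known. Genes were named by a fixed rule: the score genes and markers, list genes by level, the 15 highest and 10 lowest ratios to the other cells, and for TNF the 10 largest rises and falls at an unadjusted p under 0.05, the same way in both mice. Exceptions are stated, and some genes are not reported here.

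For each mouse and treatment the counts of the cells were added up, and edgeR 4.0.16 was run (quasi-likelihood, TMM, Benjamini-Hochberg over all genes tested, R 4.3.3), without the 4 score genes, on genes found in 5% of cells. Ratios to the other cells use CPM with 0.5 added. DESeq2 1.42.0, limma 3.58.1 on log2(CPM + 1), no filter, library size, other limits for members and cells, and each set left out were alternatives. Same-numbered sets come from the same mouse and share plates; their deviations correlated with r = 0.188 in the class II-high cells and 0.533 in the other cells. The paper describes independent experiments for these cells, without naming the mouse or the cultures of each. Mouse, experiment and plates cannot be told apart, and p-values measure the spread between these samples.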

Additional observations from a re-analysis of the deposited data

Results flagged for a closer look

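Data outside the comparisons also held class II signal. 3 wells whose labels name IL-4/IL-13 but no mouse had class II scores of 6.97, 8.40 and 8.58, above the limit that a count of 0 allows. None reached the limit of 9.297, and 2 of the 3 passed the quality limits. They held 10802, 11121 and 8314 genes at 279461, 354874 and 87198 fragments, where the set medians of kept cells were 7399 to 8169 genes. Whether each well held 1 cell was not tested, and the limit was set on single cells. They were assigned to no group, and no value in the report uses them.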

How the results depend on the processing

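The difference in the share of class II-high cells kept its direction with the top 10% and 20%, after thinning, without *Cd74* in the score, with the other cell filter, without the *Ccr7*-high cells and without each plate; leaving out 1 mouse gave 12.9 to 15.6 percentage points. Taking the top 15% within each set fixes the share and gives no such value. For TNF in the class II-high cells, 479 genes passed with DESeq2, 767 with no filter, 1 with cells kept by median absolute deviations and 0 with each set left out. The replicate block gave 0 in the class II-high cells. In the other cells the replicate block gave 370, DESeq2 489, no filter 0, limma 2, the top 20% 0, the top 15% within each set 0, median absolute deviations 0, and leaving out a set 4 to 25. For the difference of the TNF effect DESeq2 gave 281 of 15267 and no filter 7 of 46397, against 0 of 18495. The count of genes lower in the class II-high cells was 222 with the top 10% and 48 with the top 20%, and 138 to 338 with a set left out (145 and 138 without IL-4/IL-13 mouse 1 and mouse 2, 338 and 209 without IL-4/IL-13+TNF mouse 1 and mouse 2). That of genes higher was 87 to 129, the highest without IL-4/IL-13+TNF mouse 1. The cause of these changes was not tested; sets left out also loosen the limit from 4 to 3 sets.

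Some log2 fold changes of TNF in the class II-high cells turned sign. *Plbd1* was -0.000222 by library size, -0.042 with limma, -0.12 with the top 20%, -0.10 with median absolute deviations and -1.23 to 1.52 with a set left out. *H2-DMb2* was -0.0026 with limma, -0.32 to 0.64 with a set left out and -0.75 without the 11 *Ccr7*-high cells, an alternative chosen after seeing the data. *Mrc1* was 0.050 with the replicate block, 0.23 with median absolute deviations, 0.047 without those 11 cells and -0.55 to 0.66 with a set left out. *Ciita* was -1.27 to 0.55 with a set left out, the highest without IL-4/IL-13 mouse 2, and *H2-DMb1* 0.11 within sets. In the difference of the TNF effect *Ccr7* was -0.63 without the 11 cells and *C1qa* -0.43 within sets. Of 518 gene values in the class II-high cells 446 kept direction and side, 56 passed the threshold only in the alternative and 16 turned. The members without TNF number 57 cells, which limits their precision.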
